A study of Mus musculus with 9 samples.

Results

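Livers of mice that had received a faecal transfer and then an injection of concanavalin A (the FMT-Con A libraries) were compared with livers of mice given saline throughout (the WT libraries). The comparison holds the 3 libraries titled FMT-Con A and the 3 titled WT, 6 of the 9 in the series, and the 17704 genes, of 56719 listed, that passed a count filter aware of the groups. Both groups were C57BL/6J mice. FMT-Con A mice were gavaged for 4 weeks with a saline suspension of faeces from other mice in which concanavalin A (10 mg/kg) had induced a model of autoimmune hepatitis, and were injected with concanavalin A (10 mg/kg, tail vein) on the day their livers were taken. WT mice were given phosphate-buffered saline over those 4 weeks and into the tail vein on that day. The groups therefore differ in both the transfer and the injection, and in this comparison the effects of these cannot be told apart. A Con A group of 3 libraries, which had saline for 4 weeks and then the same injection, is used below to test where FMT-Con A livers differed from livers that had the injection without the transfer. A transfer without injection, and a transfer of faeces from untreated donors, are not among the groups analysed here. Counts come from sequencing of poly(A) RNA of whole liver. The hours between injection and sampling are not given in the sources used here. The p-values measure the spread between libraries, since the labels number the replicates of a group but give no further detail of their independence.

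Concanavalin A is a plant lectin that binds sugars on cell surfaces and activates T cells and NKT cells, which in the mouse leads to rapid immune injury of the liver driven largely by interferon-gamma and tumour necrosis factor. Injured and inflamed livers switch their secretion: cytokines such as interleukin-6 act through STAT3 on hepatocytes, which then produce acute phase proteins, while genes for bile acid, drug and carbohydrate metabolism are often turned down. The liver can then repair itself by growth of its hepatocytes, after a priming phase in which immediate early genes and cytokine signals come first. Gut bacteria reach the liver through the portal vein, and sinusoidal endothelium, Kupffer cells (resident macrophages) and hepatocytes carry receptors for bacterial products.

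Total counts were 20513051 to 22770276 in WT and 21580482 to 29466806 in FMT-Con A, so the groups had similar depth. Along the first principal component of all 9 libraries (68.22% of the variance) the WT libraries lay at -145.42 to -142.42 and the FMT-Con A libraries at 59.38 to 79.09. The Con A libraries lay at 50.84 to 92.2, so this component did not part the injected groups. Along the second (18.51%) FMT-Con A 1, 2 and 3 lay at 76.06, 15.8 and 76.09, and Con A at -92.61 to -15.02. FMT-Con A 1 and 3 were much closer to each other than to FMT-Con A 2: the median chi-square between libraries, over genes, was 2.56 times its value under counting noise for libraries 1 and 3, and 10.1 and 10.2 times for the pairs with library 2. The WT pairs gave 3.22 to 4.96 times, so FMT-Con A 1 and 3 were closer than any WT pair, though not within counting noise. This measure cannot show whether 2 libraries came from separate mice, because repeat samples of 1 liver can also differ by more than counting noise. All libraries were kept as samples because the labels number them so. Skeletal muscle transcripts also differed between these libraries, and their part in these distances was not tested. Without Car3, which liver itself expresses strongly, the muscle list summed to 73.3, 59.6 and 75.7 unscaled CPM (the count relative to the library total) in WT and to 23030, 2186 and 22880 in FMT-Con A, with 13.5, 26.2 and 2405 in Con A. Muscle RNA was thus highest in FMT-Con A 1 and 3, far lower in FMT-Con A 2, and low in WT. Sums over a list are given on this scale, and levels of single genes as CPM, for which the library size is also scaled with TMM factors. Some results that also rest on FMT-Con A 1 and 3 are given below with FMT-Con A 2 alone. Not every gene whose call changed there carries that value, so its absence does not mean that a result held. The labels give the sex as both female and male, and the Y-linked Ddx3y was at 179, 141 and 259 CPM in WT and 100, 135 and 109 CPM in FMT-Con A. Eif2s3y, Kdm5d and Uty, also Y-linked, had counts in every library, so each library held RNA of male mice. Xist, which female cells express, had 139, 59 and 25 counts in WT and 109, 81 and 99 counts in FMT-Con A. The labelled tissue was checked with 13 hepatocyte markers, which summed to 69790, 63980 and 75780 unscaled CPM in WT and 37310, 38520 and 36630 unscaled CPM in FMT-Con A, and the defining marker Alb (albumin) had among the highest counts in every library.

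Expression of 10449 genes, 59.0% of those tested, differed between the groups (edgeR's quasi-likelihood test, adjusted p below 0.05), 5517 of them (31.2%) higher and 4932 (27.9%) lower in FMT-Con A. Of the differing genes 6646 changed at least 2-fold, 3382 upward and 3264 downward, and 948 rose and 484 fell at least 10-fold. For 12226 genes (69.1%) the 3 libraries of FMT-Con A lay all above or all below the 3 of WT. With this much of the transcriptome moving, a gene list is described by how many members passed in each direction, read against these shares, and by its median log2FC, which was 0.032 over all genes tested. Levels below are CPM, log2FC is the log2 fold change of FMT-Con A over WT, and SE is its standard error, with n = 3 libraries in each group. A value in brackets after a gene that rose or fell is its log2FC.

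Apart from skeletal muscle genes, which are given further below, secreted defence and acute phase genes were among the largest rises. Serum amyloid A apolipoproteins, lipocalin, fibrinogen and haem- and haemoglobin-binding proteins went from 1.39 to 1.57% of all counts in WT to 14.1 to 18.4% in FMT-Con A, over the 24 genes of the acute phase list. Of these 24 genes, 23 rose and 0 fell, and the median log2FC was 3.51. Saa1, an apolipoprotein of high-density lipoprotein that rises in inflammation, had 28.8, 38.1 and 30.8 CPM in the WT libraries and 8344, 13341 and 7707 CPM in FMT-Con A (log2FC 8.23, SE 0.37, edgeR adjusted p = 3.69e-07). Saa3, a serum amyloid A made also outside hepatocytes, had 13.1, 14.8 and 10.5 CPM in WT and 7857, 9887 and 7238 CPM in FMT-Con A (log2FC 9.34, SE 0.36, edgeR adjusted p = 2.4e-07). Lcn2, which encodes a protein that withholds iron from bacteria by binding their siderophores, had 14.5, 13.2 and 11.9 CPM in WT and 5587, 8245 and 5306 CPM in FMT-Con A (log2FC 8.92, SE 0.30, edgeR adjusted p = 2.03e-07). In each of these genes FMT-Con A 2 was the highest library. The rule that named them took only genes whose WT and FMT-Con A libraries do not overlap. Reads of Saa1 and its close copy Saa2 (9.02 on the log2 scale) may be split between them.

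By amount rather than by fold, the rises that added most counts were in Hpx (hemopexin), Hp (haptoglobin), the fibrinogen chains Fga, Fgb and Fgg, the complement component C3, Saa1 and Saa2. Hpx had 2319.8, 2580.4 and 2658 CPM in WT and 17508, 22792 and 16828 CPM in FMT-Con A (log2FC 2.92, SE 0.23, edgeR adjusted p = 6.58e-06). Fga had 850, 754 and 1288 CPM in WT and 14755, 21885 and 15018 CPM in FMT-Con A (log2FC 4.16, SE 0.31, edgeR adjusted p = 5.08e-06). In both genes FMT-Con A 2 was again the highest library. Alb fell, from 38169, 33277 and 44968 CPM in WT to 20196, 17823 and 19750 CPM in FMT-Con A (log2FC -1.01, SE 0.21, edgeR adjusted p = 0.00226), with no overlap between the groups. Hamp, which encodes hepcidin, the hormone that lowers iron uptake, was the acute phase gene that did not pass (log2FC 0.16, SE 0.20, edgeR adjusted p = 0.521). Of 14 plasma protein genes that commonly fall in inflammation, 8 fell, 5 did not pass and Trf, the iron carrier transferrin, rose by 1.14. The falls included Ttr (-1.44), Apoa1 (-1.39), Apoa2 (-1.32) and Apoc3 (-1.51), which encode the carrier transthyretin and apolipoproteins. Only 3 of these 14 genes fell where FMT-Con A 2 stood alone for its group.

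Among the 12 largest rises by fold were also genes that liver barely expressed in WT. Reg3b and Reg3g, secreted antimicrobial lectins best known from the intestine, had 0 counts in the WT libraries. Reg3b had 25.3, 56.7 and 21.7 CPM in FMT-Con A, at least 727-fold higher when WT is set to a floor of 3 counts in the group (edgeR adjusted p = 9.97e-06). Reg3g had 14, 17.7 and 11.3 CPM, at least 315-fold higher (edgeR adjusted p = 4.99e-06). Reads of these related genes may be shared. Both were also above the Con A libraries, in which Reg3b had 6.49, 5.43 and 6.01 CPM (log2 difference 2.53, SE 0.37, edgeR adjusted p = 0.00651) and Reg3g 4.14, 7.47 and 4.56 CPM (log2 difference 1.41, SE 0.28, edgeR adjusted p = 0.0175; adjusted p = 0.0655 to 0.0665 without Con A 1 or FMT-Con A 1). A2m, the broad protease inhibitor alpha-2-macroglobulin, had 0.0916, 0.234 and 0.0836 CPM in WT, 136, 230.3 and 127 CPM in FMT-Con A (log2FC 10.20, SE 0.47, edgeR adjusted p = 4.24e-07) and 63, 40.8 and 35.8 CPM in Con A (log2 difference 1.82, SE 0.29, edgeR adjusted p = 0.00539). For these 3 genes the FMT-Con A libraries lay above every library of both other groups, which the naming rule required for WT but not for Con A. Other rises of this set were Serpina3i, a serine protease inhibitor gene with close copies (9.10), Olr1, a scavenger receptor for oxidised lipoprotein with 2 counts in WT and higher by 715 times (95% counting interval 198 to 5910), and the muscle genes Sln and Klhl40 (0 counts in WT). Sln and Klhl40 had 19.4, 5.46 and 16.3 and 8.9, 2.9 and 7.82 CPM in FMT-Con A, higher in libraries 1 and 3 as the muscle list was.

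The upstream sequences of these strongly rising genes are shown because binding motifs of inflammation-activated factors can be looked up in them. RefSeq promoters (GRCm38.p6) were matched for 19 of the 24 genes with the largest rises and falls, 9 rises and 10 falls, and the 250 bases before the start were searched on both strands for 4 motifs. These were the NF-kappaB motif GGGNNTTTCC, the STAT motif TTCNNNGAA, the interferon-stimulated response element GAAANNGAAA and the AP-1 motif TGANTCA. Over all 32851 promoters, 1.41, 7.02, 2.98 and 6.75% held these motifs in the same window. The window of Serpina3i held the NF-kappaB and STAT motifs, Saa3 the response element and Olr1 the AP-1 motif, shown here in capitals on the strand of the gene and without bases inside the GENCODE gene.
Serpina3i, chr12:104262872-104263121, plus strand: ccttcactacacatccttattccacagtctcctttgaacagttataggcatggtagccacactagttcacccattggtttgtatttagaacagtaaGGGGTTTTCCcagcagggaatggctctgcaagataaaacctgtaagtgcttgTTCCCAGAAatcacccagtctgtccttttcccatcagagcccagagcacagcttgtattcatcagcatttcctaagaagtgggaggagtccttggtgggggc
Saa3, chr7:46715701-46715926, minus strand: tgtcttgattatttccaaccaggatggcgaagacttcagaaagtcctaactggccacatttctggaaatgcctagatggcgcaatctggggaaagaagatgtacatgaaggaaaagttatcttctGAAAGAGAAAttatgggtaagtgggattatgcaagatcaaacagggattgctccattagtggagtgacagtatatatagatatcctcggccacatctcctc
Olr1, chr6:129507166-129507415, minus strand: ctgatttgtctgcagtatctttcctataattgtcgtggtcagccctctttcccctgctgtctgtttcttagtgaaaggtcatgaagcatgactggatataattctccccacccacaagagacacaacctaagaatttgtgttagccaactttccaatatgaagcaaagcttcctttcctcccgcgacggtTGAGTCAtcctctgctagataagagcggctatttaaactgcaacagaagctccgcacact
In all, 2 of the 9 rises with a promoter held the NF-kappaB motif, 2 the STAT motif, 1 the response element and 2 the AP-1 motif. The matches not shown were an NF-kappaB and an AP-1 motif before Klhl40, a muscle gene, and a STAT motif of Reg3b that lies inside its GENCODE gene. Of the 10 falls 1 held the AP-1 motif and 0 the other motifs. A match shows that these letters occur, not that a factor binds there.

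On GRCm38, Saa1 (ENSMUSG00000074115, chromosome 7 at 46740497 to 46742980) and Saa3 (ENSMUSG00000040026, chromosome 7 at 46711998 to 46715700) lie on the same chromosome. Lcn2 lies elsewhere (ENSMUSG00000026822, chromosome 2 at 32384633 to 32388252), as do Reg3b (ENSMUSG00000071356, chromosome 6 at 78370657 to 78373466), A2m (ENSMUSG00000030111, chromosome 6 at 121635376 to 121679227), Serpina3i (ENSMUSG00000079014, chromosome 12 at 104263122 to 104269372) and Olr1 (ENSMUSG00000030162, chromosome 6 at 129485244 to 129507165). Each is a protein-coding gene of the GENCODE vM21 annotation.

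**Figure D1:**
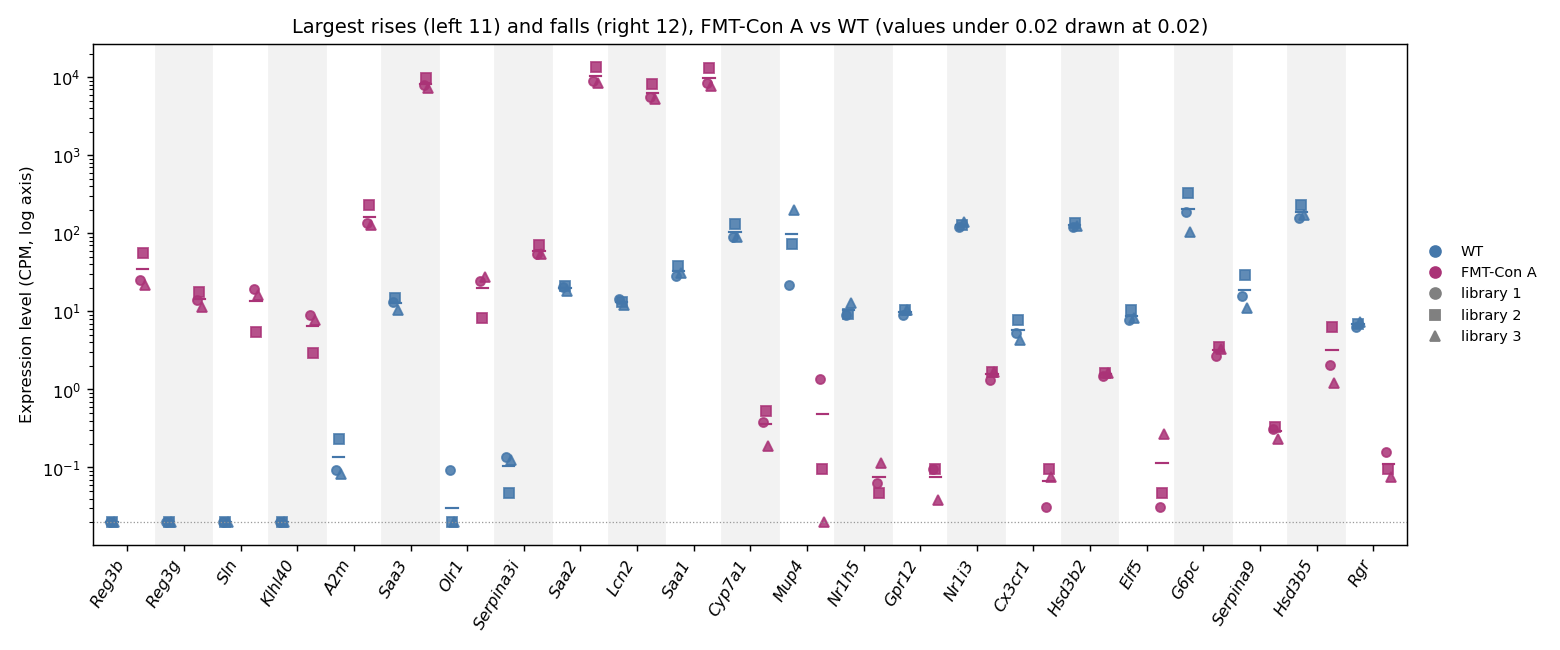
Expression level (CPM, log axis) in each WT and FMT-Con A library for 11 of the 12 largest rises and the 12 largest falls (23 genes), with group means as lines and values under 0.02 CPM drawn at 0.02. The naming rule took genes whose WT and FMT-Con A libraries do not overlap, and Mup4 spreads most within a group.

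The interferon-gamma response, a programme that this cytokine can set off in liver cells, rose in each of its 28 tested genes (28 higher, 0 lower, median log2FC 3.34, with 31.2% of all genes higher). Which cells gave the signal was not tested. Ifng itself, the interferon made by activated T and NK cells, had 0.32, 0.14 and 0.0418 CPM in WT and 3.13, 3.8 and 3.85 CPM in FMT-Con A (log2FC 4.40, SE 0.42, edgeR adjusted p = 1.98e-05). Cxcl9, a chemokine that draws T cells and is induced by interferon-gamma, had 27.5, 33.9 and 20.4 CPM in WT and 3254, 3667 and 3336 CPM in FMT-Con A (log2FC 6.97, SE 0.28, edgeR adjusted p = 2.4e-07). The lowest FMT-Con A library was above the highest WT library for each gene. Gbp5, a guanylate-binding protein of cell-autonomous defence, rose by 5.10 and Tap1, which carries peptides to MHC class I, rose by 2.14. Socs1, a feedback inhibitor of the interferon receptor, rose by 7.23 and Cd274, the checkpoint ligand PD-L1, by 4.88. Nos2, the inducible nitric oxide synthase, had 0.229, 0.234 and 0.209 CPM in WT, 22.2, 15 and 22 CPM in FMT-Con A (log2FC 6.43, SE 0.31, edgeR adjusted p = 4.65e-07) and 320.4, 192 and 271 CPM in Con A. Its level after the transfer was thus above WT and below Con A in every library, and the difference from Con A passed the test (log2 difference -3.72, SE 0.23, edgeR adjusted p = 0.000314). Of the 28 genes 13 were lower in FMT-Con A than in Con A and 0 were higher, where 16.8% of all tested genes differed between these groups, and with FMT-Con A 2 alone 3 were lower.

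Type I interferon response genes, the antiviral set, moved less. Of 22 genes 14 rose, 6 did not pass, and Mx1 and Oas2 fell, with a median log2FC of 1.13. Zbp1, a sensor of left-handed nucleic acids that can start necroptosis, had 24.6, 25.2 and 13.8 CPM in WT and 181, 185 and 184 CPM in FMT-Con A (log2FC 3.11, SE 0.24, edgeR adjusted p = 5.52e-06). Isg15, a ubiquitin-like antiviral protein, rose by 2.74, and Oasl2 by 1.66. Mx1, an antiviral GTPase, had 9.75, 9.6 and 7.98 CPM in WT and 3, 4.51 and 3.2 CPM in FMT-Con A (log2FC -1.36, SE 0.35, edgeR adjusted p = 0.00728), each FMT-Con A library below each WT library (adjusted p = 0.162 with FMT-Con A 2 alone). Irf7, the factor that amplifies this response, was at 137, 169 and 82.6 CPM in WT and 122, 175 and 111 CPM in FMT-Con A (log2FC 0.07, SE 0.27, edgeR adjusted p = 0.834), against 272, 272 and 358 CPM in Con A (log2 difference -1.14, SE 0.27, edgeR adjusted p = 0.0224; adjusted p = 0.0516 to 0.0952 without Con A 1, Con A 3, FMT-Con A 1 or FMT-Con A 3). The transfer group was lower than Con A in 19 of the 22 genes and higher in 0, with 0 lower where FMT-Con A 2 stood alone.

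Among 24 genes for cytokines and chemokines, 22 were higher, only Il18 was lower and the result for Il4 did not pass (median log2FC 3.54). Il6, the main inducer of acute phase proteins, had 3 counts in WT and 47 in FMT-Con A, higher by 13.3 times (95% counting interval 4.29 to 66.9) and an edgeR adjusted p of 0.00177. Tnf had 0.641, 0.421 and 0.711 CPM in WT and 6.95, 3.61 and 7.59 CPM in FMT-Con A (log2FC 3.34, SE 0.42, edgeR adjusted p = 0.000107). Il1rn, which encodes the natural antagonist of the interleukin-1 receptor, had 2.06, 1.12 and 1.88 CPM in WT and 136, 140 and 132 CPM in FMT-Con A (log2FC 6.33, SE 0.29, edgeR adjusted p = 4.29e-07). Groups did not overlap in these 3 genes, and Il6 stayed under 1 CPM in every library of both. Chemokines for neutrophils, Cxcl1 (4.17), Cxcl2 (6.66) and Cxcl5 (5.28), and for monocytes, Ccl2 (5.77) and Ccl7 (6.20), rose with them, as did Il10, an anti-inflammatory cytokine (1.34, adjusted p = 0.0784 to 0.117 without WT 2, WT 3 or FMT-Con A 2). Il18, an inducer of interferon-gamma that the liver holds at rest, fell from 9.89, 11.5 and 11.7 CPM to 1.93, 3.66 and 2.86 CPM (log2FC -1.98, SE 0.26, edgeR adjusted p = 0.000154).

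Each of the 15 genes of the NF-kappaB subunit and feedback list rose, with a median log2FC of 1.79. The ubiquitin-editing inhibitor gene Tnfaip3 (A20) went from 2.38, 2.06 and 1.92 CPM to 125, 75.3 and 128 CPM (log2FC 5.68, SE 0.29, edgeR adjusted p = 6.45e-07), and Bcl3, a nuclear partner of NF-kappaB, rose by 2.86. Of 12 leukocyte adhesion genes 11 rose and Itgal did not pass. Icam1, the endothelial and hepatocyte ligand of leukocyte integrins, went from 9.71, 6.74 and 9.15 CPM to 241, 111 and 225 CPM (log2FC 4.49, SE 0.33, edgeR adjusted p = 4.89e-06), and Sele, endothelial E-selectin, from 0 counts to 3.28, 2.47 and 4.04 CPM, at least 74.3-fold higher (edgeR adjusted p = 0.000137). None of these 3 genes overlapped between the groups.

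Of 19 genes of the bacterial sensing list, which holds receptors, their adaptors and kinases and some RNA sensors, 12 rose, 3 fell and 4 did not pass. Cd14, the coreceptor for lipopolysaccharide, had 1.69, 1.69 and 2.09 CPM in WT and 286, 508 and 274 CPM in FMT-Con A (log2FC 7.60, SE 0.50, edgeR adjusted p = 2.49e-06). Tlr2, which senses bacterial lipoproteins, had 1.65, 1.08 and 1.55 CPM in WT and 70.4, 51.8 and 68.5 CPM in FMT-Con A (log2FC 5.47, SE 0.26, edgeR adjusted p = 4.64e-07). Lbp, the plasma protein that hands lipopolysaccharide to CD14, rose by 3.72, the adaptor gene Myd88 by 2.49, Tlr4, the lipopolysaccharide receptor, by 0.72 (adjusted p = 0.0571 to 0.106 without WT 1, WT 2, FMT-Con A 1 or FMT-Con A 3), and Irak3, which dampens signalling, by 4.74. The falls were Tlr5, the flagellin receptor, from 8.7, 12.7 and 12.2 CPM to 1.23, 1.14 and 0.763 CPM (log2FC -3.41, SE 0.29, edgeR adjusted p = 1.04e-05), and the RNA sensors Tlr7 (-2.07) and Tlr8 (-1.75). Against Con A, Tlr2, Tlr3, Tlr7, Ly96 and Irak3 of this list were lower and 0 genes were higher, where 1873 of all 17704 genes tested were lower. For this list, counts against Con A with libraries left out were not examined.

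In antigen presentation, peptide-loading genes rose while the class II chain genes H2-Aa (-0.13), H2-Ab1 (-0.12) and H2-Eb1 (0.13) did not pass. Of 15 genes 7 rose, among them Tap1, Tap2 (1.54) and Tapbp (1.32), and B2m, Cd1d1 and H2-DMb1 fell (H2-DMb1 with adjusted p = 0.0534 to 0.131 without WT 1, WT 2, WT 3, Con A 3, FMT-Con A 1, FMT-Con A 2 or FMT-Con A 3). Cd1d1, which presents lipids to NKT cells, went from 290, 328 and 304 CPM to 138, 134 and 134 CPM (log2FC -1.18, SE 0.16, edgeR adjusted p = 0.000161). Of 11 T cell checkpoint genes 4 rose, Cd274, Pdcd1lg2, Ctla4 and Tnfrsf9, Lag3 fell by 1.16 (adjusted p = 0.0525 to 0.158 without WT 1, WT 3, FMT-Con A 1, FMT-Con A 2 or FMT-Con A 3) and 6 did not pass. Of 22 complement genes 6 rose and 6 fell, shares near those of all genes (31.2% higher, 27.9% lower). C3 rose by 2.40, and C9, a part of the membrane attack complex, fell by 1.22 (log2FC -0.54 with FMT-Con A 2 alone). Of 19 coagulation genes 7 rose and 4 fell, also near the shares of all genes. Proc, which encodes the anticoagulant protein C, fell from 660.5, 662 and 726 CPM to 293, 329 and 262 CPM (log2FC -1.21, SE 0.16, edgeR adjusted p = 0.000146).

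**Figure D2:**
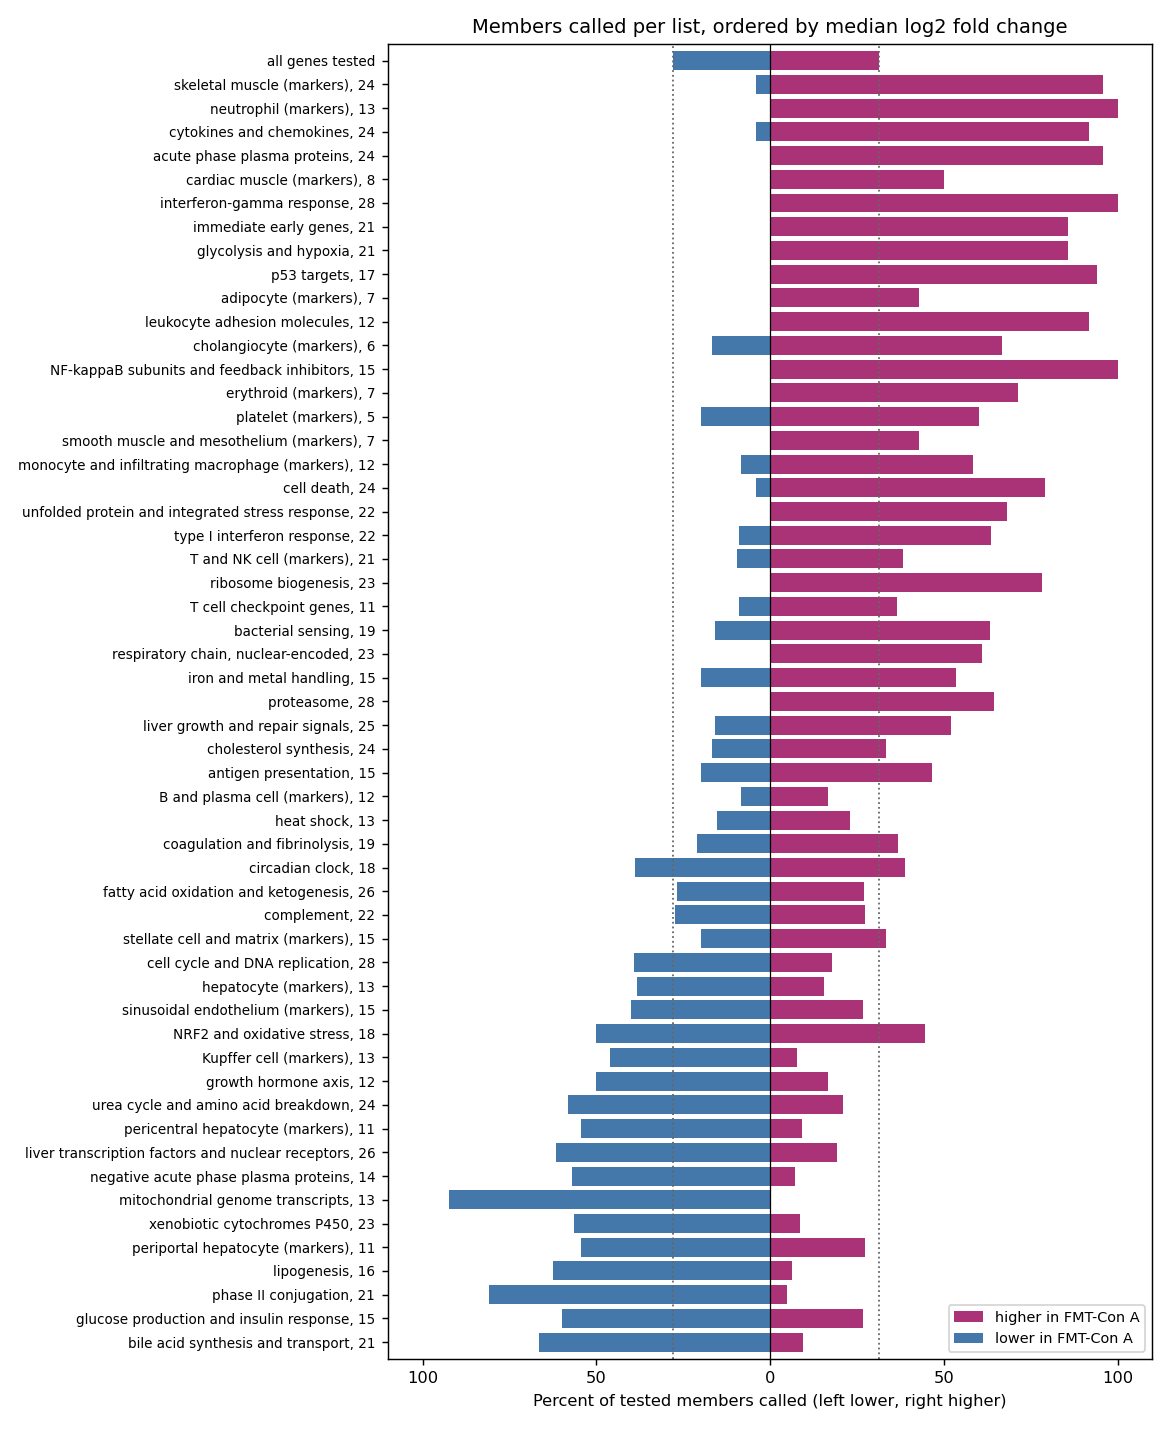
Percent of tested members called lower (left) or higher (right) in FMT-Con A against WT for each list with at least 5 tested members, the number tested given after the name, ordered by median log2FC. Dotted lines mark the shares of all genes tested, 27.9% lower and 31.2% higher, which the neutrophil, interferon-gamma and NF-kappaB lists exceed upward and phase II conjugation and mitochondrial genome lists downward.

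Genes of cell death and p53 targets were mostly higher. Of 24 cell death genes 19 rose, Gsdme fell (adjusted p = 0.0713 to 0.123 without WT 2, WT 3, FMT-Con A 1 or FMT-Con A 3) and 4 did not pass, with a median log2FC of 1.24. Mlkl, the pore-forming effector of necroptosis, had 7.37, 6.84 and 5.81 CPM in WT and 40.9, 42.4 and 38.4 CPM in FMT-Con A (log2FC 2.60, SE 0.14, edgeR adjusted p = 9.13e-07). Tnfrsf12a, the receptor for TWEAK that marks injured hepatocytes and progenitors, had 4.9, 3.56 and 3.93 CPM in WT and 63.7, 71 and 59.3 CPM in FMT-Con A (log2FC 3.97, SE 0.16, edgeR adjusted p = 2.42e-07). Survival genes rose too, Bcl2l1 by 2.57 and Mcl1 by 0.96, whereas Casp8, the initiator caspase of death receptors, did not pass (0.07). Of 17 p53 targets 16 rose and Bbc3 did not pass. Cdkn1a, the p21 inhibitor of cell division, had 3.48, 1.36 and 0.752 CPM in WT and 126, 183 and 119 CPM in FMT-Con A (log2FC 6.26, SE 0.53, edgeR adjusted p = 1.04e-05). Gdf15, a secreted stress cytokine, had 2.29, 2.01 and 1.17 CPM in WT and 42.6, 59.4 and 41.4 CPM in FMT-Con A (log2FC 4.71, SE 0.39, edgeR adjusted p = 9.36e-06). No library of FMT-Con A fell within the WT range for any of these 4 genes.

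Of 22 genes of the unfolded protein and integrated stress response 15 rose, 0 fell and 7 did not pass. Hspa5, the endoplasmic reticulum chaperone BiP, had 384, 407 and 322 CPM in WT and 1173, 1325 and 1189.5 CPM in FMT-Con A (log2FC 1.73, SE 0.16, edgeR adjusted p = 1.88e-05), and Creld2 and Asns, a secreted stress protein and asparagine synthetase, rose by 2.67 and 4.81. Among genes for building ribosomes 18 of 23 rose, and of those for the proteasome 18 of 28, none of either list being lower, with median 0.94 and 0.54. NRF2 targets split, 8 higher and 9 lower of 18. Hmox1, which breaks down haem, had 8.84, 6.51 and 9.45 CPM in WT and 185, 237 and 192 CPM in FMT-Con A (log2FC 4.63, SE 0.24, edgeR adjusted p = 6.74e-07), while Gclc, the catalytic subunit of glutathione synthesis, fell from 297, 243 and 309 CPM to 55.4, 64.7 and 60.9 CPM (log2FC -2.23, SE 0.17, edgeR adjusted p = 5.02e-06). The groups did not overlap in these genes. Of 13 heat shock genes 3 rose and 2 fell, where 31.2% of all genes were higher and 27.9% lower. Of 15 genes for iron and metal handling 8 rose and 3 fell. The metallothionein gene Mt1 had 25, 31.9 and 18.4 CPM in WT and 5136, 5915 and 4593 CPM in FMT-Con A (log2FC 7.70, SE 0.33, edgeR adjusted p = 3.05e-07), and Slc40a1, the iron exporter ferroportin, fell from 87.3, 102 and 111 CPM to 14, 16.7 and 14.9 CPM (log2FC -2.72, SE 0.23, edgeR adjusted p = 9.17e-06).

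Glycolysis and hypoxia genes were higher in 18 of 21 cases and lower in 0, and their median log2FC was 2.49. Ldha, lactate dehydrogenase, had 148, 150.2 and 175 CPM in WT and 1361, 1564 and 1214 CPM in FMT-Con A (log2FC 3.13, SE 0.26, edgeR adjusted p = 9.38e-06). Pfkp, a phosphofructokinase, had 2.2, 2.01 and 2.38 CPM in WT and 25.5, 22.2 and 25.3 CPM in FMT-Con A (log2FC 3.46, SE 0.14, edgeR adjusted p = 2.4e-07). Pkm, a pyruvate kinase of non-hepatocyte tissues, had 8.01, 9.27 and 7.27 CPM in WT and 268, 104 and 244 CPM in FMT-Con A (log2FC 4.65, SE 0.38, edgeR adjusted p = 8.15e-06). The first of these genes differed little between FMT-Con A libraries, and the last was higher in libraries 1 and 3, as were the muscle genes. Aldoa, an aldolase abundant in muscle, followed the same order, with 1306, 405 and 1244 CPM in FMT-Con A and 79.2, 81.1 and 80.4 CPM in WT. With FMT-Con A 2 alone 17 of the 21 genes rose. The part of muscle RNA in the levels of the shared genes was not tested.

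The submitters ask which pathways bear on repair of the liver, so early growth genes and cell division genes were read as groups. Immediate early genes, the first to respond in a liver that is about to regenerate, rose in 18 of 21 cases with 0 lower (median log2FC 3.10). Atf3, a stress-induced repressor, had 1.37, 0.702 and 1.3 CPM in WT and 143, 99.8 and 133 CPM in FMT-Con A (log2FC 6.79, SE 0.37, edgeR adjusted p = 9.51e-07). Jun, which hepatocytes need to divide, had 14.3, 12.5 and 11.1 CPM in WT and 208, 138 and 193 CPM in FMT-Con A (log2FC 3.83, SE 0.23, edgeR adjusted p = 1.44e-06). For both genes FMT-Con A 2 was the lowest FMT-Con A library and still far above WT. Myc, Ier2 and Klf10 did not pass, Myc with 13.2, 16.1 and 29.5 CPM in WT and 15.2, 14.8 and 15.5 CPM in FMT-Con A (log2FC -0.37, SE 0.29, edgeR adjusted p = 0.29).

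Growth and repair signals were mixed, 13 higher, 4 lower and 8 not passing of 25. Of the ligands of the epidermal growth factor receptor on the list, Btc did not pass and the other 4 rose, Hbegf from 0.733, 0.468 and 0.334 CPM to 12.9, 6.84 and 11.3 CPM (log2FC 4.34, SE 0.34, edgeR adjusted p = 6.05e-06) and Ereg by 2.87, and Tgfa by 0.51 (adjusted p = 0.0569 to 0.068 without WT 1, WT 2 or FMT-Con A 3). Areg, also among them, had 1 count in WT and 31 in FMT-Con A, higher by 26.4 times (95% counting interval 4.39 to 1070). Of the interleukin-6 family axis, Osmr, the oncostatin M receptor, rose by 3.60, the factor gene Stat3 by 2.05, and Socs3, a feedback inhibitor, from 8.47, 6.46 and 14.6 CPM to 197, 258 and 192 CPM (log2FC 4.45, SE 0.37, edgeR adjusted p = 9.05e-06). Lrg1, a secreted target of that axis, had 165, 192 and 183 CPM in WT and 2061, 3074 and 1848 CPM in FMT-Con A (log2FC 3.69, SE 0.23, edgeR adjusted p = 2.05e-06). The falls were Hgf, hepatocyte growth factor, from 4.03, 5.71 and 5.06 CPM to 1.96, 2.23 and 1.64 CPM (log2FC -1.34, SE 0.32, edgeR adjusted p = 0.0051), Inhba, a subunit of the growth inhibitor activin A, from 57.1, 90.2 and 48.6 CPM to 5.49, 2.14 and 6.18 CPM (log2FC -3.81, SE 0.40, edgeR adjusted p = 3.77e-05), Wnt2, a ligand made by central vein endothelium, by 2.57 (adjusted p = 0.069 without WT 2), and Lifr, the leukaemia inhibitory factor receptor, by 2.94. Hbegf, Lrg1, Hgf and Inhba each had FMT-Con A libraries wholly outside the WT range. The fall of Hgf did not pass with FMT-Con A 2 as the only FMT-Con A library (adjusted p = 0.111 with FMT-Con A 2 alone). Hgf was also below Con A, where it had 5.97, 2.81 and 6.67 CPM (log2 difference -1.41, SE 0.32, edgeR adjusted p = 0.0197; adjusted p = 0.0778 to 0.0815 without Con A 1, FMT-Con A 1 or FMT-Con A 3), as was Areg with 2.51, 2.62 and 2.82 CPM in Con A (log2 difference -2.75, SE 0.38, edgeR adjusted p = 0.00332).

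Of 28 cell cycle and DNA replication genes 5 rose, 11 fell and 12 did not pass, with a median log2FC of -0.41, so the share that rose was below the 31.2% of all genes. The 5 rises were Mcm2 (1.04), Mcm3 (0.98) and Mcm4 of the replicative helicase, Pcna, the polymerase clamp (0.81), and Ccne1, cyclin E1 (1.24), while the other 3 helicase genes of the list did not pass. Mcm4 had 1.79, 2.48 and 1.92 CPM in WT and 7.26, 7.98 and 6.6 CPM in FMT-Con A (log2FC 1.82, SE 0.24, edgeR adjusted p = 0.000144). Among the falls were Birc5, survivin, with 3.8, 3.65 and 3.47 CPM in WT and 0.821, 0.522 and 0.267 CPM in FMT-Con A (log2FC -2.73, SE 0.36, edgeR adjusted p = 0.00016) and Plk1, polo-like kinase, at -1.57. Mki67, the common marker of dividing cells, had 8.29, 13.4 and 6.27 CPM in WT and 4.58, 5.98 and 4.31 CPM in FMT-Con A (log2FC -0.91, SE 0.27, edgeR adjusted p = 0.014; adjusted p = 0.0519 to 0.0606 without WT 2, FMT-Con A 1 or FMT-Con A 3). Counts of these genes were low, and 4 genes of the list fell with FMT-Con A 2 alone and 6 without FMT-Con A 1. Tk1, thymidine kinase, fell from 78.5, 74 and 66.9 CPM to 5.87, 5.46 and 6.03 CPM (log2FC -3.66, SE 0.27, edgeR adjusted p = 4.66e-06), which was the largest fall of the list.

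**Figure D3:**
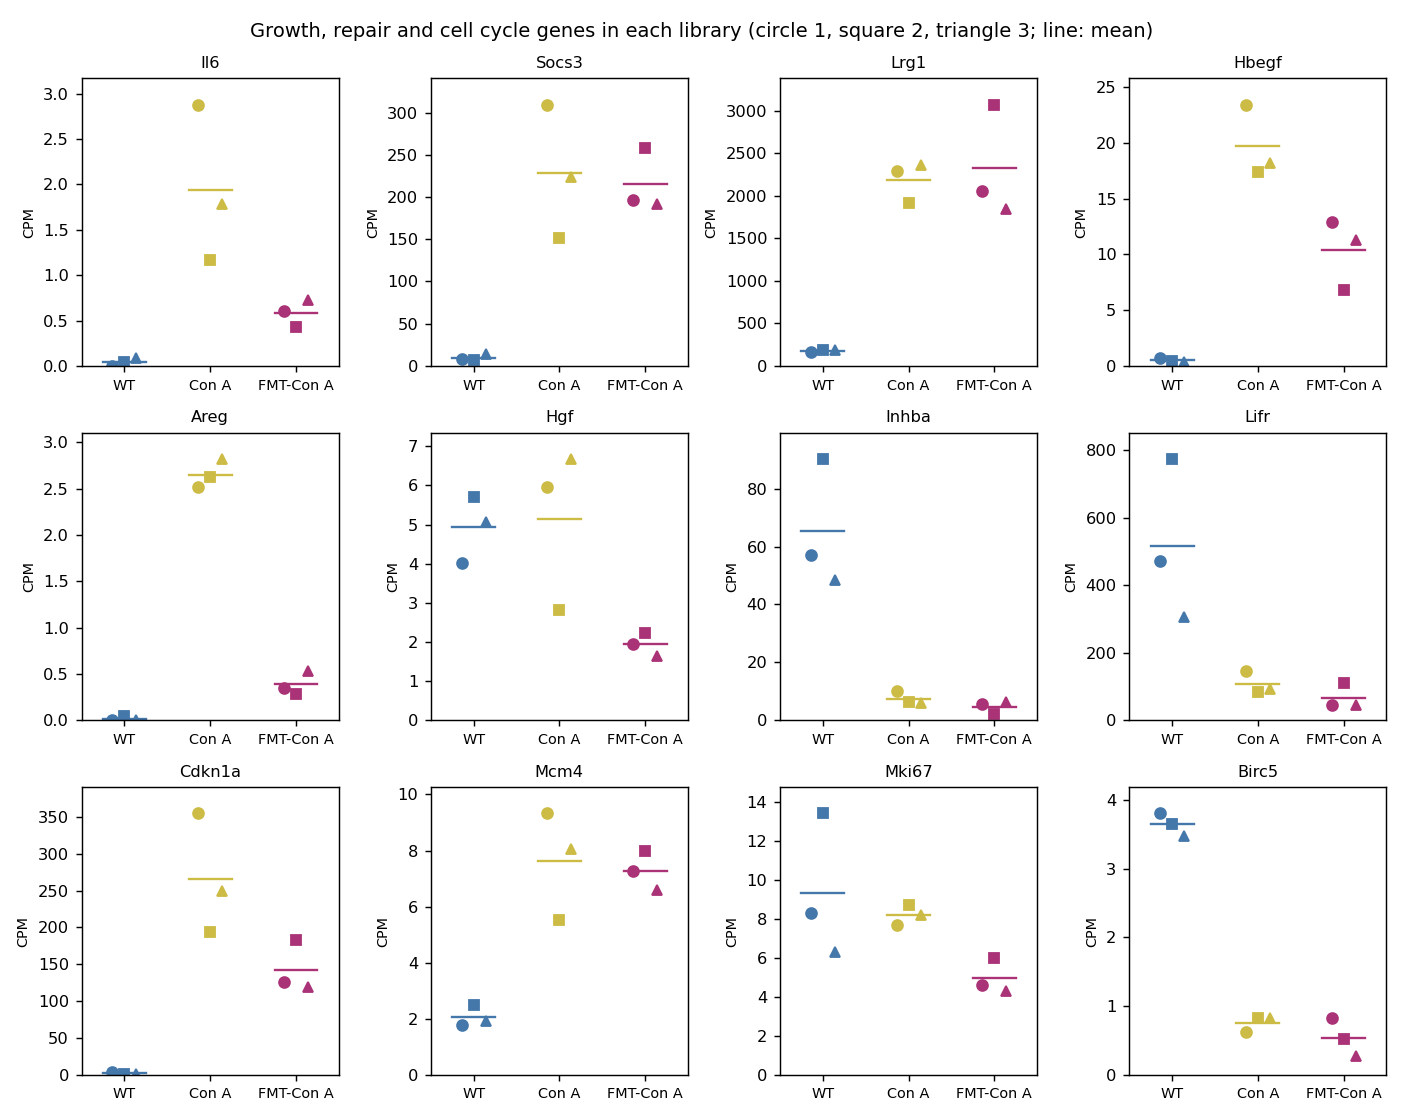
Expression level (CPM, linear axes from 0) of 12 growth, repair and cell cycle genes in each library of WT, Con A and FMT-Con A, with group means as lines. Socs3, Lrg1, Hbegf, Cdkn1a and Mcm4 lie above WT in FMT-Con A, and Hgf, Inhba, Lifr, Mki67 and Birc5 below it.

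Regulators of liver genes fell more often than they rose. Of 26 liver transcription factors and nuclear receptors 16 fell, 5 rose and 5 did not pass (median log2FC -0.81, with 27.9% of all genes lower). Nr1i3, the xenobiotic receptor CAR, had 122, 129 and 138 CPM in WT and 1.33, 1.66 and 1.68 CPM in FMT-Con A (log2FC -6.38, SE 0.25, edgeR adjusted p = 2.4e-07). Nr0b2, the gene of SHP, a repressor that bile acids induce, had 61.9, 56.1 and 33.1 CPM in WT and 3.95, 2.47 and 2.44 CPM in FMT-Con A (log2FC -4.08, SE 0.30, edgeR adjusted p = 4.47e-06). Ppara, the fasting and fat-burning receptor, had 159, 126 and 151 CPM in WT and 29.2, 43.9 and 29.9 CPM in FMT-Con A (log2FC -2.08, SE 0.21, edgeR adjusted p = 2.58e-05). These receptors did not overlap between groups, which the naming rule required of Nr1i3. Nr1i3 was low in each of the 3 FMT-Con A libraries. The rises were Hnf4a (0.54, adjusted p = 0.0512 to 0.126 without WT 1, WT 2, WT 3 or FMT-Con A 2), Foxa3 (1.23), Nr5a2 (0.46) and the acute phase factors Cebpb (0.92, adjusted p = 0.0635 to 0.0737 without WT 3 or FMT-Con A 2) and Cebpd (4.13). Foxa2, a pioneer factor of liver, fell by 1.18 and was above its Con A level (log2 difference 1.74, SE 0.21, edgeR adjusted p = 0.00218).

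Bile acid synthesis and transport fell in 14 of 21 genes, with 2 rises and a median log2FC of -1.57. Cyp7a1, which catalyses the slowest step from cholesterol to bile acids, had 88.7, 132 and 90.8 CPM in WT and 0.379, 0.522 and 0.191 CPM in FMT-Con A (log2FC -8.16, SE 0.32, edgeR adjusted p = 2.4e-07), the largest fall under the naming rule. Cyp8b1, which makes cholic acid, had 78.1, 59.8 and 111 CPM in WT and 13.1, 12.3 and 10.2 CPM in FMT-Con A (log2FC -2.80, SE 0.41, edgeR adjusted p = 0.000294). Abcc2, a canalicular export pump, had 269, 265 and 268 CPM in WT and 15.7, 32.3 and 15.6 CPM in FMT-Con A (log2FC -3.66, SE 0.31, edgeR adjusted p = 9.71e-06). Every FMT-Con A library was below every WT library, which the naming rule required of Cyp7a1. FMT-Con A 2 kept more of Abcc2 than the other FMT-Con A libraries. Transcripts of the carriers for uptake from blood fell, Slc10a1, which encodes NTCP (-1.57), and Slco1b2 (-2.40). So did Abcb11, which encodes the bile salt pump for export into bile (-2.28). The rises were Baat, which conjugates bile acids (0.97), and Abcc4, a pump of the blood-facing membrane, from 0.458, 0.468 and 0.585 CPM to 5.27, 1.61 and 5.38 CPM (log2FC 3.01, SE 0.45, edgeR adjusted p = 0.000358). Abcc2 was also below Con A, which had 70.9, 46.9 and 70 CPM (log2 difference -1.56, SE 0.28, edgeR adjusted p = 0.00911).

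Drug-metabolising genes fell in both phases. Of 23 cytochromes P450, 13 fell, 8 did not pass, and Cyp2b10 and Cyp3a13 rose. Where FMT-Con A 2 stood alone, 6 of the 23 fell. Cyp3a11, the main mouse enzyme of the CYP3A family, had 1408, 1561 and 1409 CPM in WT, 494, 577 and 529 CPM in FMT-Con A (log2FC -1.45, SE 0.24, edgeR adjusted p = 0.00057) and 2573, 1716 and 1297 CPM in Con A (log2 difference -1.80, SE 0.24, edgeR adjusted p = 0.00285). Con A and WT libraries overlapped for this gene, and the FMT-Con A libraries lay below both. Cyp2b10, the classical target of CAR, went from 4.99, 7.02 and 0.92 CPM to 20.1, 31.6 and 20.6 CPM (log2FC 2.49, SE 0.51, edgeR adjusted p = 0.00216) while the receptor gene itself fell. Of 21 phase II conjugation genes 17 fell, 3 did not pass and Sult1a1 rose by 1.06 (median log2FC -1.46). Ugt1a6a, a glucuronosyltransferase, had 49, 43.4 and 47.2 CPM in WT and 4.23, 2.47 and 3.51 CPM in FMT-Con A (log2FC -3.76, SE 0.37, edgeR adjusted p = 2.37e-05), and Glyat, which conjugates glycine, fell by 2.55.

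Glucose and lipogenesis genes also fell more often than they rose. G6pc, glucose-6-phosphatase, the last step of glucose release, had 187, 327 and 105 CPM in WT and 2.71, 3.51 and 3.28 CPM in FMT-Con A (log2FC -6.03, SE 0.47, edgeR adjusted p = 6.29e-06). Pck1, the gluconeogenic carboxykinase, had 2407, 1996 and 1564 CPM in WT, 302, 489.9 and 283 CPM in FMT-Con A (log2FC -2.47, SE 0.28, edgeR adjusted p = 5.92e-05) and 1484, 1229 and 948 CPM in Con A (log2 difference -1.77, SE 0.27, edgeR adjusted p = 0.00501). WT and FMT-Con A were apart in both genes, which the naming rule required of G6pc. Pck1 was lower after the transfer than after the injection without it. Of 15 glucose genes 9 fell, 2 did not pass and Fbp1, Pcx, Irs2 and Igfbp1 rose. Igfbp1, a binding protein that rises in fasting and injury, had 9.66, 7.72 and 2.88 CPM in WT and 310, 297 and 315 CPM in FMT-Con A (log2FC 5.51, SE 0.50, edgeR adjusted p = 1.63e-05). Of 16 lipogenesis genes 10 fell, 5 did not pass and Insig2, a brake on the sterol-regulated factors, rose by 1.01. Mlxipl, the carbohydrate-sensing factor ChREBP, had 1027, 1148 and 993 CPM in WT and 162, 129 and 151 CPM in FMT-Con A (log2FC -2.84, SE 0.22, edgeR adjusted p = 5.47e-06). Of 24 cholesterol synthesis genes 8 rose, a share near the 31.2% of all genes, 4 fell and 12 did not pass. Sqle, squalene epoxidase, rose most of these (3.02). The number of cholesterol genes that rose was 3 without WT 1, 4 without WT 2 and 4 without FMT-Con A 2. Of 26 fatty acid oxidation genes 7 rose and 7 fell, shares near those of all genes (31.2% higher, 27.9% lower). The fatty acid oxidation rises numbered 4 without WT 1, 4 without WT 2 and 4 without FMT-Con A 1. Pdk4 rose most of these (7.35), with 4.3, 2.57 and 5.77 CPM in WT and 947, 146 and 976 CPM in FMT-Con A. It was higher in FMT-Con A 1 and 3, as the muscle genes were. The part of muscle RNA in the rises of this list was not tested. The peroxisomal thiolase gene Acaa1b had 1248, 787 and 2134 CPM in WT and 87.2, 112 and 81.1 CPM in FMT-Con A (log2FC -3.89, SE 0.47, edgeR adjusted p = 8.83e-05).

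Of 24 urea cycle and amino acid genes 14 fell, 5 rose and 5 did not pass. Hal, which starts histidine breakdown, had 203, 183 and 228 CPM in WT and 28.7, 25.4 and 27.8 CPM in FMT-Con A (log2FC -2.90, SE 0.17, edgeR adjusted p = 1.22e-06), and Bhmt, of methionine metabolism, fell by 2.23. The rises included Tat, tyrosine aminotransferase (1.22), and Tdo2, which degrades tryptophan (0.97, adjusted p = 0.0614 to 0.0769 without WT 1, WT 3 or FMT-Con A 2), both classical glucocorticoid-induced genes. Cps1, the entry enzyme of the urea cycle, had 652, 639 and 540.1 CPM in WT, 346, 535 and 333 CPM in FMT-Con A (log2FC -0.59, SE 0.32, edgeR adjusted p = 0.135; adjusted p = 0.037 without Con A 2 and 0.0401 in a fit of the WT and FMT-Con A libraries) and 1962, 837 and 2029 CPM in Con A (log2 difference -1.99, SE 0.33, edgeR adjusted p = 0.00651). In the growth hormone axis 6 of 12 genes fell, among them the receptor gene Ghr (-1.57), Igf1 (-0.86) and Igfals (-2.52), which encodes the carrier that keeps IGF1 in blood, and Socs2 and Igfbp1 rose. Male-biased liver genes, which follow pulses of growth hormone, fell in 8 of 12 cases with 0 higher. Elovl3, a fatty acid elongase, had 41.3, 38 and 43 CPM in WT, 0.474, 2.37 and 0.687 CPM in FMT-Con A (log2FC -5.19, SE 0.65, edgeR adjusted p = 0.000118) and 36.9, 8.05 and 24.8 CPM in Con A (log2 difference -4.38, SE 0.64, edgeR adjusted p = 0.00413). Hsd3b5, a male-specific steroid dehydrogenase with close copies, had 157, 233 and 174 CPM in WT and 2.08, 6.27 and 1.22 CPM in FMT-Con A (log2FC -5.91, SE 0.70, edgeR adjusted p = 7.87e-05). Libraries of FMT-Con A lay below those of both other groups in Elovl3 and Hsd3b5, which for Hsd3b5 against WT the naming rule required. Among 8 female-biased genes 1 rose and 3 fell.

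Other large falls were in Mup4, a major urinary protein gene, with 22, 72.3 and 198 CPM in WT, 1.36, 0.095 and 0 CPM in FMT-Con A (log2FC -7.50, SE 1.24, edgeR adjusted p = 0.000628) and 218, 199 and 49.9 CPM in Con A (log2 difference -8.17, SE 1.26, edgeR adjusted p = 0.00501), though its WT libraries spread 9-fold and copies of this family share reads. Nr1h5 (FXR beta, -7.00), Gpr12 (-6.94), Hsd3b2 (-6.34), Elf5 (-6.19), Serpina9 (-5.98), Rgr (-5.85) and Cx3cr1, the fractalkine receptor (-6.38), complete the 12 largest falls. On GRCm38, Cyp7a1 (ENSMUSG00000028240, chromosome 4 at 6265612 to 6275633), Mup4 (ENSMUSG00000041333, chromosome 4 at 59956804 to 59960710), Nr1i3 (ENSMUSG00000005677, chromosome 1 at 171213970 to 171220701) and G6pc (ENSMUSG00000078650, chromosome 11 at 101367561 to 101377903) are protein-coding genes on different chromosomes, apart from the pair Cyp7a1 and Mup4.

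Of 18 circadian clock genes 7 rose, 7 fell and 4 did not pass, and 3 rose with FMT-Con A 2 alone. Over all genes tested, 31.2% were higher and 27.9% lower. The outputs Dbp (-3.19), Hlf (-3.25) and Tef (-1.62) and the repressor Per3 (-2.86) fell, and Arntl, the activator BMAL1 (1.11), and Per1 (1.43) rose. Nr1d1, the repressor REV-ERB alpha, had 7.97, 8.19 and 15.3 CPM in WT, 13.9, 12.5 and 11.8 CPM in FMT-Con A (log2FC 0.28, SE 0.28, edgeR adjusted p = 0.406; adjusted p = 0.0416 without WT 3) and 162, 118 and 87.3 CPM in Con A (log2 difference -3.26, SE 0.30, edgeR adjusted p = 0.00147). WT and FMT-Con A libraries overlapped and every Con A library was above them. The clock hour of sampling is not given in the sources used here, so its part in these differences was not tested.

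Transcripts of the mitochondrial genome, which encode subunits of the respiratory chain, fell in 12 of 13 genes, with mt-Atp6 not passing (-0.41, and -2.21 with adjusted p = 0.0061 with FMT-Con A 2 alone; median log2FC -1.03). Their share of the counts was 15.6, 16.3 and 15% in WT against 8.43, 5.49 and 8.93% in FMT-Con A, with FMT-Con A 2 the lowest. mt-Co1, cytochrome oxidase subunit 1, had 63626, 72318 and 64148 CPM in WT and 34004, 23042 and 35602 CPM in FMT-Con A (log2FC -1.11, SE 0.27, edgeR adjusted p = 0.00591). Of the 13 genes 7 passed with FMT-Con A 2 alone. Nuclear-encoded subunits of the same chain rose in 14 of 23 cases with 0 lower, and in 4 with FMT-Con A 2 alone. Atp5b, of the ATP synthase, had 225, 250.4 and 302 CPM in WT and 939, 523 and 884 CPM in FMT-Con A (log2FC 1.59, SE 0.31, edgeR adjusted p = 0.00161), higher in FMT-Con A 1 and 3. Its log2FC was 1.01 with FMT-Con A 2 alone (adjusted p = 0.0607 with FMT-Con A 2 alone). Muscle, which is rich in mitochondria, was highest in the same libraries, and its part in these levels was not tested.

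**Figure D4:**
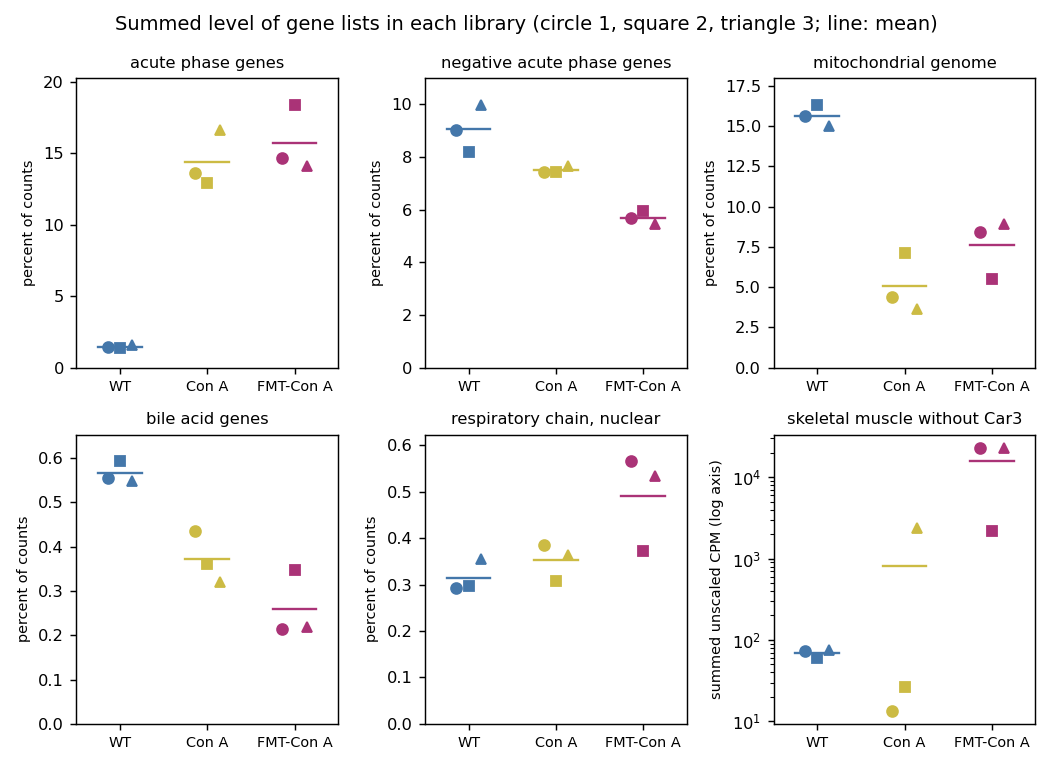
Summed level of 6 gene lists in each library of WT, Con A and FMT-Con A, as percent of counts on linear axes from 0 or, for skeletal muscle without Car3, as unscaled CPM on a log axis, with group means as lines. Acute phase genes reach 14.1 to 18.4% of counts in FMT-Con A, and the muscle panel shows FMT-Con A 1 and 3 far above FMT-Con A 2.

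Markers of cell types were read next. In bulk liver RNA, fewer cells of a type and less RNA per cell cannot be told apart. Neutrophil markers rose in 13 of 13 cases and summed to 15.3, 10.3 and 16.1 unscaled CPM in WT and 250, 355 and 244 unscaled CPM in FMT-Con A, highest in FMT-Con A 2. S100a9, a subunit of the granule protein calprotectin, had 2.75, 1.87 and 3.39 CPM in WT and 102, 164 and 96.2 CPM in FMT-Con A (log2FC 5.50, SE 0.35, edgeR adjusted p = 2.22e-06), and Retnlg rose by 6.97. Of 12 monocyte and infiltrating macrophage markers 7 rose, among them Chil3 (6.85) and Itgam (3.98), 4 did not pass and Cx3cr1 fell, from 5.31, 7.72 and 4.3 CPM to 0.0316, 0.095 and 0.0763 CPM. Of 13 Kupffer cell markers 6 fell, 6 did not pass and the scavenger receptor gene Marco rose by 2.64. Clec4f, a lectin particular to Kupffer cells, had 87, 78.7 and 118 CPM in WT and 14.9, 38.4 and 14.7 CPM in FMT-Con A (log2FC -2.06, SE 0.36, edgeR adjusted p = 0.000895). The Kupffer list summed to 439, 418 and 532 unscaled CPM in WT and 199, 285 and 199 unscaled CPM in FMT-Con A, and 3 of its genes fell with FMT-Con A 2 alone.

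Lymphocyte markers moved less. On the T and NK cell list of 21 genes 8 were higher (31.2% of all genes were), Cd4 and Klrk1 were lower and 11 did not pass. Cd3e, of the T cell receptor complex, was among these, with 1.14, 0.655 and 1.46 CPM in WT and 1.29, 1.85 and 1.3 CPM in FMT-Con A (log2FC 0.43, SE 0.54, edgeR adjusted p = 0.51). Gzmb, granzyme B of cytotoxic granules, had 1.28, 0.936 and 1.17 CPM in WT, 10.2, 12.4 and 10.4 CPM in FMT-Con A (log2FC 3.27, SE 0.26, edgeR adjusted p = 7.76e-06) and 42.3, 39.8 and 22.7 CPM in Con A (log2 difference -1.67, SE 0.22, edgeR adjusted p = 0.00296). Prf1, perforin, had 0.595, 0.281 and 0.251 CPM in WT and 0.631, 0.617 and 0.572 CPM in FMT-Con A (log2FC 0.69, SE 0.39, edgeR adjusted p = 0.146; adjusted p = 0.0296 without WT 1) and 4.35, 3.98 and 2.86 CPM in Con A (log2 difference -2.61, SE 0.34, edgeR adjusted p = 0.00278). Gzmb thus lay between WT and Con A, and the call of Prf1 against WT turned on WT 1. Of the T and NK genes 8 were lower than in Con A and 0 higher, with 0 lower for FMT-Con A 2 alone and 3 to 5 lower where WT 1, WT 2, Con A 1, Con A 2, FMT-Con A 1 or FMT-Con A 3 was left out. Of 12 B and plasma cell markers 2 rose and 1 fell, and of 7 erythroid markers 5 rose, Hbb-bs by 1.76, where globin copies may share reads.

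Sinusoidal endothelial markers split into 4 higher and 6 lower of 15, where 31.2% of all genes were higher and 27.9% lower. Their list summed to 206, 157 and 185 unscaled CPM in WT and 246, 159 and 242 unscaled CPM in FMT-Con A. The sum exceeded every WT library only in FMT-Con A 1 and 3, where muscle RNA was highest, and the part of muscle tissue was not tested. Clec4g, a lectin of sinusoidal endothelium, fell from 17.5, 13.8 and 13 CPM to 2.56, 2.14 and 2.02 CPM (log2FC -2.71, SE 0.28, edgeR adjusted p = 3.02e-05), and Lyve1, a hyaluronan receptor, rose by 2.63. Of 15 stellate cell and matrix genes 5 rose and 3 fell, to be read against the same shares of all genes. Timp1, an inhibitor of matrix breakdown, had 0.183, 0.234 and 0.167 CPM in WT and 13.6, 15.8 and 13.4 CPM in FMT-Con A (log2FC 6.16, SE 0.48, edgeR adjusted p = 6.53e-06), and Lrat, which stores vitamin A in quiescent stellate cells, had 8.61, 8.61 and 14.3 CPM in WT and 1.36, 0.902 and 1.03 CPM in FMT-Con A (log2FC -3.24, SE 0.37, edgeR adjusted p = 6.24e-05). Des and Acta2, also muscle genes, rose by 6.28 and 2.15, and with FMT-Con A 2 alone 2 stellate genes rose and Acta2 was at -0.43 (adjusted p = 0.0872 to 0.118 without WT 1, WT 3, FMT-Con A 1 or FMT-Con A 3). Collagens Col1a1, Col1a2 and Col3a1 did not pass (0.09, -0.20 and -0.19), though Col1a2 and Col3a1 were lower with FMT-Con A 2 alone (-0.81 and -1.23). Of 6 cholangiocyte markers 4 rose and 1 fell. Sox9, of bile duct cells and reactive hepatocytes near them, had 4.12, 3.7 and 3.13 CPM in WT, 18.6, 44.2 and 22.4 CPM in FMT-Con A (log2FC 2.96, SE 0.40, edgeR adjusted p = 0.000175) and 13.6, 5.87 and 13.1 CPM in Con A (log2 difference 1.38, SE 0.37, edgeR adjusted p = 0.0328; adjusted p = 0.0513 to 0.0729 without WT 1, WT 2, Con A 1, FMT-Con A 2 or FMT-Con A 3), with each FMT-Con A library above both other groups.

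Of the 13 hepatocyte markers 5 fell, 2 with FMT-Con A 2 alone, and 2 rose. Of the zonal hepatocyte markers 6 of 11 pericentral and 6 of 11 periportal genes fell, with 1 and 3 higher. The periportal list summed to 5968, 5206 and 5022 unscaled CPM in WT and 2217, 2785 and 2096 unscaled CPM in FMT-Con A. The pericentral list summed to 6035, 6521 and 6408 unscaled CPM in WT and 5168, 7783 and 5118 unscaled CPM in FMT-Con A. The pericentral sum was thus above every WT library in FMT-Con A 2. With FMT-Con A 2 alone 3 pericentral genes fell. Lgr5, a Wnt target of hepatocytes at the central vein, had 3.94, 3.93 and 5.35 CPM in WT and 0.316, 0.19 and 0.153 CPM in FMT-Con A (log2FC -4.26, SE 0.34, edgeR adjusted p = 7.06e-06), while Glul, glutamine synthetase of the same cells, rose by 1.12. Of the other tissues a dissection could carry over, 23 of 24 skeletal muscle genes were higher and Car3 lower. Acta1, skeletal actin, had 1.33, 0.234 and 1.04 CPM in WT and 2859.8, 312 and 2564 CPM in FMT-Con A (log2FC 11.09, SE 2.67, edgeR adjusted p = 0.00537). Cardiac and smooth muscle lists had 4 of 8 and 3 of 7 genes higher. The cardiac list summed to 3.36, 3.3 and 4.96 unscaled CPM in WT and 352, 33.1 and 344 unscaled CPM in FMT-Con A. Its rises were Myh6, Myh7, Myl2 and Myl3, each highest in libraries 1 and 3 as the skeletal muscle list was. The cardiac genes Myl4, Tnnt2, Tnni3 and Actc1 did not pass, and Myl7, Nppa, Nppb and Ryr2 were below the filter. Adipocyte genes rose in 3 of 7 cases, and platelet genes in 3 of 5 with Itga2b lower. The adipocyte rises were Plin4, Cidec and Fabp4, while Adipoq, Lep, Plin1 and Retn did not pass. The adipocyte list summed to 71.4, 81.2 and 32.1 unscaled CPM in WT and 476, 266 and 472 unscaled CPM in FMT-Con A. It was higher in FMT-Con A 1 and 3 as the muscle list was, and summed to 268.3, 196.5 and 231.3 unscaled CPM in Con A. The adipocyte genes that rose numbered 5 without WT 2 and 5 with no count filter. The smooth muscle genes that rose numbered 0 with FMT-Con A 2 alone and 0 without WT 1, FMT-Con A 1 or FMT-Con A 3, 1 without WT 2, 5 without Con A 2 or FMT-Con A 2, 5 in a fit of the WT and FMT-Con A libraries and 6 with no count filter. The exocrine pancreas list had 1 gene above the filter, Cela1, which fell by 1.79. Over all tested genes, 880 were more than 3-fold higher in both FMT-Con A 1 and 3 than in FMT-Con A 2, and 492 of these were among the 5517 higher genes.

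FMT-Con A livers were set against Con A livers, which had the injection without the transfer. The comparisons of each group with WT share the WT libraries, so values are given side by side and the difference between FMT-Con A and Con A (log2 difference) was tested itself. FMT-Con A differed from Con A in 2981 genes (16.8% of those tested), 1108 higher and 1873 lower, and 2084 of the 2981 also differed from WT. This count turned on single libraries more than the count against WT did: it was 664 without FMT-Con A 1, 778 without FMT-Con A 3, 812 without Con A 1, 1828 without WT 1, 1156 in a fit of the 6 FMT-Con A and Con A libraries and 99 with FMT-Con A 2 as the only FMT-Con A library. Of the 25 genes whose difference from Con A is given, 19 did not pass with that library alone, and 0 changed direction. Of the genes called against WT, those furthest below Con A were Mup4, Elovl3, Duox2, Gml2 and Nos2. Duox2, which makes hydrogen peroxide at mucosal surfaces, had 1 count in WT, 2.15, 1.19 and 2.14 CPM in FMT-Con A and 14.6, 9.02 and 58.8 CPM in Con A (log2 difference -3.90, SE 0.66, edgeR adjusted p = 0.00695), and Gml2 had 0 counts in WT, 0.347, 0.332 and 0.114 CPM in FMT-Con A and 4.61, 0.728 and 5.39 CPM in Con A (log2 difference -3.73, SE 0.78, edgeR adjusted p = 0.0202; adjusted p = 0.071 to 0.0785 without Con A 1, FMT-Con A 1 or FMT-Con A 3). The call of Gml2 against WT also turned on single libraries (adjusted p = 0.0637 to 0.0776 without WT 1, WT 2, WT 3, FMT-Con A 1 or FMT-Con A 2). Those furthest above Con A, Ptk6, Odf3l2, Mfap5, Tecrl and Plpp7, were low in every group. Ptk6, an epithelial tyrosine kinase, had 3.02, 2.2 and 2.88 CPM in WT, 0.631, 0.332 and 0.267 CPM in FMT-Con A and 0 counts in Con A, and the other 4 were lowest in FMT-Con A 2 among the FMT-Con A libraries, as the muscle genes were. Of the members tested, 14 of 21 immediate early genes, 12 of 21 glycolysis and hypoxia genes, 11 of 17 p53 targets, 10 of 24 cell death genes, 9 of 15 NF-kappaB genes and 13 of 24 cytokine genes were lower in FMT-Con A than in Con A, and 0 of any of these lists higher. With FMT-Con A 2 alone these counts were 0, 2, 0, 1, 3 and 0. Leaving out Con A 1, FMT-Con A 1 or FMT-Con A 3 left 5 to 7 immediate early, 3 to 4 glycolysis, 6 to 7 p53, 2 to 4 cell death and 4 to 7 cytokine genes lower. Glycolysis genes numbered 7 without WT 1, 7 without FMT-Con A 2 and 6 without Con A 3, and cell death genes 6 without WT 1. Acute phase genes were lower in 2 of 24 cases, and ribosome biogenesis genes in 0 of 23 with 2 higher. Higher than Con A were Reg3b, A2m and Sox9, given above, and Nnmt, nicotinamide N-methyltransferase, chosen after its values were seen, with 7.51, 5.1 and 4.39 CPM in WT, 343, 562 and 333 CPM in FMT-Con A (log2FC 6.19, SE 0.40, edgeR adjusted p = 2.23e-06) and 97.6, 197 and 109.7 CPM in Con A (log2 difference 1.61, SE 0.32, edgeR adjusted p = 0.013; adjusted p = 0.0537 without Con A 1).

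**Figure D5:**
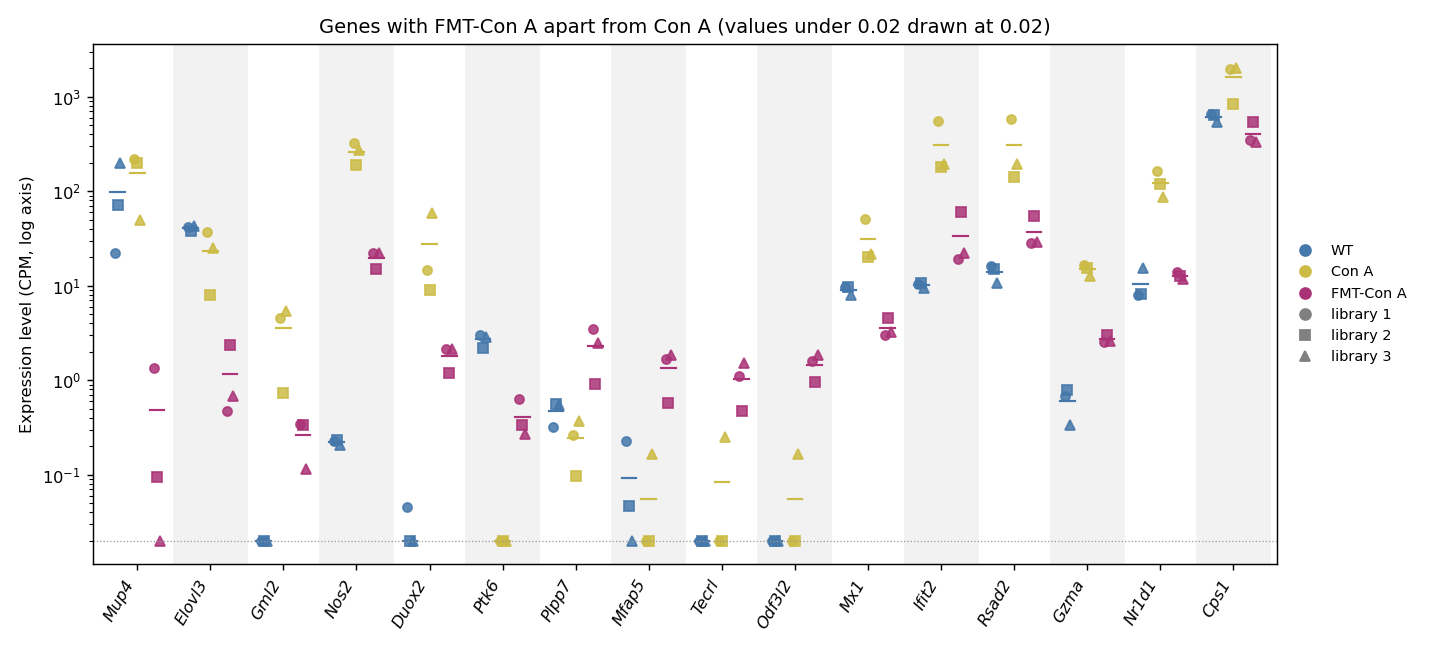
Expression level (CPM, log axis, values under 0.02 drawn at 0.02) in each library of WT, Con A and FMT-Con A for the 5 genes furthest below and 5 furthest above Con A, and for Mx1, Ifit2, Rsad2, Gzma, Nr1d1 and Cps1. Nos2 in FMT-Con A lies between WT and Con A, and Mx1 lies below both.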

How the data were processed

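The deposited files hold whole-number read counts per gene for each library, with no header. Per the submitters' processing notes the authors used CASAVA, HISAT2 and featureCounts on GRCm38 (mm10), and versions and counting settings are not given in the sources used here. Ensembl identifiers were matched to symbols and positions in GENCODE vM21.

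Genes passing edgeR's filterByExpr (minimum count 10, minimum total 15) were tested with edgeR 4.0.16 (R 4.3.3): TMM scaling, a quasi-likelihood F test (two-sided) in 1 model of all 9 libraries with 6 residual degrees of freedom, no replicate term, and Benjamini-Hochberg adjustment over all genes tested, threshold 0.05. Log2 fold changes use a prior count of 0.125 and principal components a prior count of 2. SE is the size of the log2 fold change divided by the square root of F. Count ratios carry exact intervals, which like the floor of 3 counts cover counting error only. The script was tested on simulated data. Alternatives were DESeq2 1.42.0, its size factors, no filter, 6 libraries only, each library left out, FMT-Con A 2 alone, a replicate block, muscle or mitochondrial genes removed, and a test against a 2-fold change (limma 3.58.1 underlies edgeR).

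Genes were named by these rules: the 12 largest rises and falls (2-fold or more, at least 5 CPM in the higher group, no overlap), the 8 largest by difference in level, up to 4 called members per list by lowest p with members against a list's direction, and the 5 largest differences from Con A each way. Predicted genes, immune receptor segments, muscle list genes and genes over 3 times higher in both FMT-Con A 1 and 3 than in FMT-Con A 2 were left out of the first, second and last rule. A fixed set of 15 genes (Ifng, Tnf, Il6, Il10, Cxcl9, Nos2, Saa1, Lcn2, Hmox1, Cyp7a1, Nr1i3, Mki67, Cdkn1a, Hgf, Alb) was named whatever their p. Other list members given with values were chosen after their values were seen. A few genes that these rules name are not reported here. The comparison and all lists were chosen with earlier results of these data known, so list counts are descriptions.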

Additional observations from a re-analysis of the deposited data

How the results depend on the processing

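The count of 10449 differing genes was 9060 to 11349 with 1 library left out at a time, 6957 with FMT-Con A 2 as the only FMT-Con A library (3216 of them lower), which then is assumed to vary like the other groups, and 4002 (2139 higher, 1863 lower) in a test against a 2-fold change, which asks for larger effects by construction. With a replicate block it was 10207. Same-numbered WT and FMT-Con A libraries did not deviate together (correlations 0.03, 0.071 and 0.021), so the numbers were not taken as pairs. Under the block Hnf4a, Acta2, Gsdme, H2-DMb1 and the difference of Sox9 from Con A did not pass (adjusted p = 0.0504 to 0.0632). With FMT-Con A 2 alone, the lower members numbered 3 for negative acute phase proteins, 4 for cell cycle, 6 for cytochromes P450, 7 for mitochondrial transcripts, 2 for hepatocyte, 3 for pericentral and 3 for Kupffer cell markers. The higher members then numbered 3 for fatty acid oxidation, 3 for clock, 4 for nuclear respiratory chain and 2 for stellate cell genes. The fit holds fewer libraries, and other causes were not tested. Leaving out 1 library at a time gave 6 to 10 lower cell cycle genes, 3 to 10 higher cholesterol genes and 4 to 8 higher fatty acid oxidation genes. Alternatives for the difference from Con A were chosen after seeing the data. Its count of 2981 genes (1873 lower) was 664 to 4053 (513 to 2366 lower) with 1 library left out, 1156 (832) in a fit of the 6 FMT-Con A and Con A libraries, 99 (67) with FMT-Con A 2 alone and 2663 with a replicate block. Of 240 genes named, Acta2 changed sign, to -0.43 with FMT-Con A 2 alone, where 27 others no longer passed. DESeq2 changed no call among the named genes that it gave an adjusted p, and neither did its size factors. DESeq2 gave no adjusted p for 63 genes, and where a setting left a list member without a value that list has no count under it. Genes at a few counts, such as Il6, Areg and Ptk6, are limited by depth.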

Other observations

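The genes in these paragraphs were chosen after their values were seen, and no explanation is given for them. Several rises outside the lists above were among the most even across libraries. Gbp2b, a guanylate-binding protein gene with close copies, had 9.52, 9.74 and 8.82 CPM in WT and 694, 664 and 726 CPM in FMT-Con A (log2FC 6.21, SE 0.17, edgeR adjusted p = 7.37e-08). Serpina3f, a serine protease inhibitor gene of a cluster with similar copies, had 1.19, 1.17 and 1.13 CPM and 200.3, 211 and 198 CPM (log2FC 7.44, SE 0.20, edgeR adjusted p = 7.37e-08). Bmper, which encodes a secreted modulator of bone morphogenetic proteins, had 0.0458, 0.0936 and 0.167 CPM and 19.6, 23.4 and 19.4 CPM (log2FC 7.57, SE 0.26, edgeR adjusted p = 2.03e-07). In these 3 genes the FMT-Con A libraries lay close together, far above WT and below every Con A library. Fgl1, a fibrinogen-like protein secreted by hepatocytes, had 158, 93.6 and 211 CPM in WT and 2765, 3809.7 and 2733 CPM in FMT-Con A (log2FC 4.33, SE 0.38, edgeR adjusted p = 1.31e-05). Acod1, which makes itaconate in activated macrophages, had 0.412, 0.0468 and 0.0836 CPM and 12.5, 10.3 and 11.1 CPM (log2FC 5.94, SE 0.44, edgeR adjusted p = 4.66e-06), and Tifa, an adaptor in sensing of a bacterial sugar, rose by 6.48. Among falls, Slc17a8, the vesicular glutamate transporter VGLUT3, went from 145, 149 and 167 CPM to 2.78, 4.04 and 2.9 CPM (log2FC -5.58, SE 0.23, edgeR adjusted p = 2.4e-07).

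Some genes lay on opposite sides of WT in the injected groups. F11, coagulation factor XI, had 96.2, 114 and 115 CPM in WT, 41.5, 48.9 and 39.2 CPM in FMT-Con A (log2FC -1.33, SE 0.16, edgeR adjusted p = 8.96e-05) and 209, 149 and 176 CPM in Con A, a difference between the injected groups that passed (log2 difference -2.04, SE 0.16, edgeR adjusted p = 0.00147). Nfe2l2, the gene of NRF2 itself, had 89.5, 79.8 and 99.2 CPM in WT, 66.4, 40.3 and 68.6 CPM in FMT-Con A (log2FC -0.61, SE 0.21, edgeR adjusted p = 0.0304; adjusted p = 0.0642 to 0.091 without WT 1, WT 3 or FMT-Con A 2) and 193, 206 and 149 CPM in Con A (log2 difference -1.64, SE 0.22, edgeR adjusted p = 0.00285). Acot2, an acyl-CoA thioesterase of mitochondria, went the opposite way, with 7.33, 5.43 and 12.2 CPM in WT, 22.2, 17.9 and 21.9 CPM in FMT-Con A (log2FC 1.31, SE 0.27, edgeR adjusted p = 0.00224) and 4.19, 3.59 and 5.14 CPM in Con A (log2 difference 2.26, SE 0.28, edgeR adjusted p = 0.00236). For each of these genes the FMT-Con A libraries did not overlap with either other group. The difference of Acot2 did not pass with FMT-Con A 2 as the only FMT-Con A library. A further 33 genes were not called between FMT-Con A and WT, differed between FMT-Con A and Con A, and lay over 4-fold from WT in Con A (at least 5 CPM in WT or Con A). Gas2l3, a cytoskeletal linker, was among them with 1.74, 2.2 and 1.88 CPM in WT, 2.81, 2.04 and 2.94 CPM in FMT-Con A (log2FC 0.42, SE 0.28, edgeR adjusted p = 0.215) and 11.6, 7.57 and 15.2 CPM in Con A (log2 difference -2.13, SE 0.27, edgeR adjusted p = 0.00268).

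Of 22 tested major urinary protein genes, whose near-identical copies share reads, 12 fell, 1 rose and 9 did not pass, with a median log2FC of -1.77. Mup17 was the rise, with 2199, 1563 and 1310 CPM in WT and 3033, 5325 and 2571 CPM in FMT-Con A (adjusted p = 0.055 to 0.0612 without WT 2 or WT 3). Mup19 spread most, with 6.73, 210 and 74.1 CPM in WT and 0.663, 286 and 0.801 CPM in FMT-Con A, and without FMT-Con A 2 its log2FC was -7.04.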
